A study of Mus musculus with 140 samples.

Results

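The comparison set mouse embryonic stem (ES) cells carrying an shRNA against Esrrb beside ES cells carrying the empty vector, on each of 8 matched days. Members were chosen by the sample titles: every sample titled as an Esrrb shRNA course and every sample titled as empty vector. That gave 8 RNA samples on 16 arrays for the Esrrb shRNA course and 8 RNA samples on 16 arrays for the empty vector course, out of 70 RNA samples on 140 arrays in the series. Both courses used CCE cells, a male ES cell line of the 129/Sv strain, kept in 1000 units/ml of LIF throughout. Cells were transduced with a vector that also expresses GFP, and 48 hours later GFP+ cells were sorted for day 0 and the remainder re-plated. GFP+ cells were then sorted once a day through day 7, and total RNA was hybridised to the A and B arrays of the mouse 430 set. The empty vector cells differed from the Esrrb shRNA cells by lacking a hairpin. They did not carry a control hairpin, and no second Esrrb hairpin was analysed here. Each course had 1 RNA sample a day, nothing in the labels tells of separate transductions, and p-values therefore measure the scatter of samples around smooth curves, which may be technical. That scatter was taken over all 9 courses of the series. Of these, 1 course of 7 RNA samples was treated with 5 µM retinoic acid, with LIF at 0 units/ml. In these bulk samples, fewer cells of a type and less RNA per cell cannot be told apart.

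Esrrb is an orphan nuclear receptor that binds DNA as a monomer at the sequence TCAAGGTCA and activates genes of the naive pluripotent state, among them Klf4, Tfcp2l1 and Nr0b1. In ES cells it works beside Nanog, Oct4 (gene Pou5f1) and Sox2, and together with LIF and Stat3 signalling it keeps cells from moving toward the primed epiblast. In the early mouse embryo it is also active in the trophoblast stem cell compartment, and embryos without it have placental defects.

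A value below is the deposited signal of 1 probe set on a linear scale, and 1 probe set stands for each of 14751 genes. Differences are Esrrb shRNA minus empty vector on the scale log2(signal + pseudocount), on which changes of dim genes come out too small. The late difference is the mean of the differences between the fitted curves over days 4 to 7, given with its standard error (SE). A gene is said to have risen or fallen where its limma p-value for the late difference, adjusted by Benjamini and Hochberg over both array tables, was below 0.05. Means ± SD are over the 4 late days of a course unless stated.

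Array medians ran from 236.1 to 316.6 in the Esrrb shRNA course and from 244.4 to 330.8 in the empty vector course on A, and from 75.8 to 101.4 and from 80.8 to 105.5 on B. The empty vector sample of day 0 stood apart from its own course, with correlations of 0.93 to 0.952 with the later empty vector days. Each day 0 sample had the lowest mean correlation within its course, 0.9436 for the empty vector and 0.9404 for the Esrrb shRNA sample. With day 0 of the 6 other shRNA courses the empty vector sample correlated at 0.954 to 0.964 and the Esrrb shRNA sample at 0.936 to 0.959. Which of these day 0 samples is the unusual one was not tested. The Esrrb shRNA sample of day 0 correlated at 0.956 to 0.958 with days 1 to 3 of the empty vector course but at 0.944 with its day 0. From day 0 to day 1 of the empty vector course 1163 genes were lower by at least 2-fold, against 360 to 479 between later adjacent days. The day 1 total and the main results on change over time are therefore also given without day 0. Counts by day within gene lists, and of genes passing early but not late, are given only with it.

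The targeted transcript was low from the start. The probe set used for Esrrb read 727.5, 719.2, 766.7, 764, 865.1, 742.7, 756.9 and 767.8 on days 0 to 7 of the Esrrb shRNA course. In empty vector cells it read 1879.6, 1886.5, 1944.1, 1700.6, 2058.3, 2221.1, 2178.8 and 2566.8. Every Esrrb shRNA sample was below every empty vector sample, and the low level was flat over the 8 days. A second probe set averaged 520 ± 107 in Esrrb shRNA cells and 5820 ± 685 in empty vector cells (SD, n = 8 days), a 10.2-fold difference, and the third averaged 277 ± 55.1 and 1460 ± 193, a 4.49-fold difference. The set used showed the smallest, 2.63-fold over 8 days. All 3 were lower on 8 of 8 days, with an exact two-sided sign-flip permutation p of 0.00781 each, the smallest that 8 days allow. That test takes the days as independent pairs, while they are serial samples of 1 course on each side. Its p therefore does not measure the spread between separate transductions. The late difference of the set used was -1.49 ± 0.11 (adjusted p = 4.35e-14), and -2.26 as the mean of its probe sets. The residual signal differs between probe sets, so the amount of Esrrb mRNA left cannot be read from 1 of them.

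Over all genes, 23 passed on day 0 by the fitted curves and 2636 passed late. These counts differ in precision, since day 0 is a single day at the end of the curves and late is a mean over 4 days. Late, 1441 genes (9.77%) were higher in Esrrb shRNA cells and 1195 (8.1%) lower, and 361 of the higher and 250 of the lower differed by at least 2-fold. The median late difference of all genes was -0.04. Counts within the gene lists below were not tested and are to be read beside the shares of 9.77% and 8.1%. Without the day 7 sample of the Esrrb shRNA course 712 genes were lower, without that of the empty vector course 708, over days 4 to 6 alone 731 and without the spline 754.

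**Figure D1:**
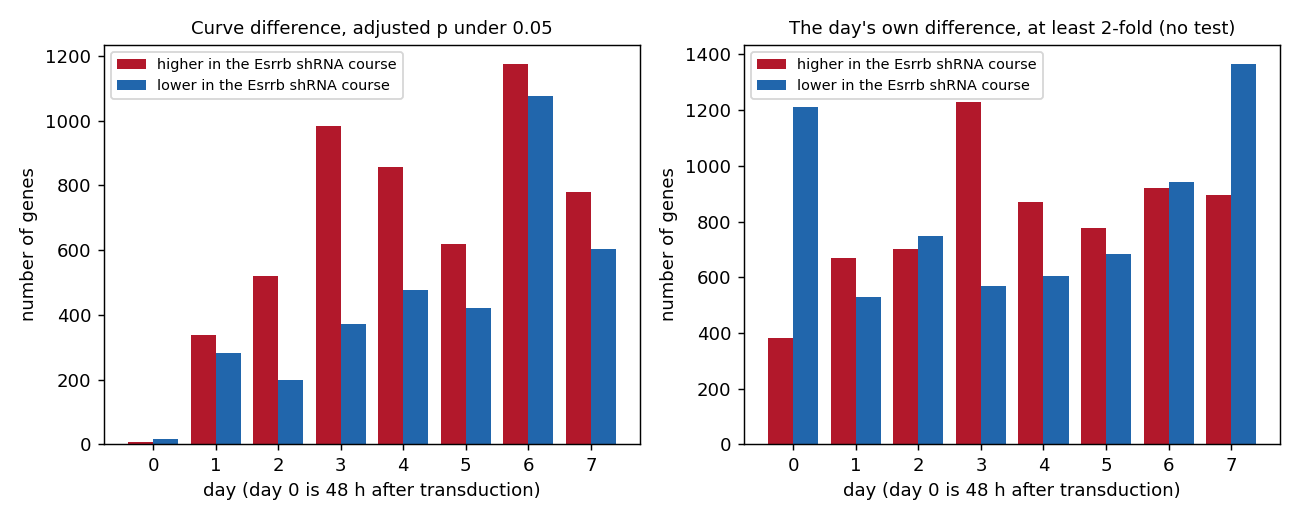
Genes with a curve difference passing the 0.05 threshold (left) and genes with an own-day difference of at least 2-fold (right), by day of the course, with a red bar for genes higher and a blue bar for genes lower in Esrrb shRNA cells. On day 0, 8 genes were higher and 15 lower by the curves, and on day 6, 1176 were higher and 1075 lower.

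Taken day by day from the fitted curves, day 0 had 8 genes higher (0.0542%) and 15 lower (0.102%). Day 1 had 338 higher (2.29%) and 282 lower (1.91%), and day 2 had 521 higher (3.53%) and 200 lower (1.36%). Day 3 had 983 higher (6.66%) and 370 lower (2.51%), and day 4 had 856 higher (5.8%) and 476 lower (3.23%). On days 1 to 7 more genes were higher than lower by these curves, which were not centred on the median of all genes. Day 5 had 620 higher (4.2%) and 421 lower (2.85%), day 6 had 1176 higher (7.97%) and 1075 lower (7.29%), and day 7 had 779 higher (5.28%) and 604 lower (4.09%). The day 1 total of 620 was 163 without the empty vector sample of day 0, 181 without the Esrrb shRNA sample of day 0 and 70 without both. The day 6 total of 2251 was 992 without the Esrrb shRNA sample of day 7 and 1199 without that of the empty vector. The curves are less precise at their ends, with a median SE of 0.374 on days 0 and 7 against 0.233 to 0.281 between them, and the counts of days 0 to 6 moved by over 1.5 times with a stiffer or a more flexible curve. The order of the days by count is for these reasons not read here.

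Sizes of difference are given without a test. The genes that were higher late had median own-day differences of 0.04, 0.27, 0.39, 0.62, 0.53, 0.60, 0.78 and 0.77 on days 0 to 7. For the genes that were lower late these were -0.25, -0.22, -0.28, -0.34, -0.51, -0.60, -0.70 and -0.81. Late calls chose these genes, so that their larger late values follow from the choice. The median of all genes ran from -0.14 on day 0 to 0.20 on day 3, which moved the 2-fold counts of single days. After centring each day on that median, an added step chosen after seeing the data, genes higher by at least 2-fold numbered 528 on day 0, 814 on day 4 and 1091 on day 7. Genes lower by at least 2-fold numbered 924 on day 0, 636 on day 4 and 1101 on day 7. Neighbouring days of the empty vector course alone had 334 to 794 genes higher and 360 to 1163 lower by 2-fold without centring, the 1163 between days 0 and 1.

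Onset was taken as the first day from which the own-day difference stayed at 2-fold or more in the late direction through day 7. Such a day could be given for 505 of the higher and 456 of the lower genes. Among the higher genes 7, 32, 37, 40, 35, 62, 132 and 160 began on days 0 to 7, and among the lower genes 6, 16, 11, 10, 24, 41, 135 and 213. By day 4 that was 29.9% of the higher against 14.7% of the lower onsets, and by day 5 it was 42.2% against 23.7%. A larger share of the rises than of the falls had thus begun by day 4, a difference that was not tested. Onsets were taken without centring, and the median of all genes was 0.20 on day 3 and -0.10 on day 7. After centring, day 3 had 746 genes higher and 870 lower by 2-fold, against 1228 and 569 without it. Day 7 had 1091 and 1101 after centring, against 896 and 1367. Onsets after centring were not computed, so part of the contrast may follow from these shifts. A late onset is easier to meet, since an onset on day 7 needs 1 day and an onset on day 0 needs 8.

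The earliest genes had distinct names on each side. Acta1, Tagln and Cnn2, which encode a muscle actin and actin-binding proteins, and Dusp5, which encodes an ERK phosphatase, were higher by 2-fold from day 0. Khdc3, Inhbb, Msc and Tbx3 were lower by 2-fold from day 0. By the definition of onset these 8 genes were also past 2-fold on each of days 1 to 7. From day 1 Acta2, Tpm1, Cdkn1c and Car4 were higher, and Mymx, Manba, Etv4 and Smarcd3 were lower. Igf2, Krt19, Krt18 and App followed on day 2, and Vgf, Cryab, Krt8 and Anxa1 on day 3. From day 4 came Krt7, Cited1, Bmp1 and Crabp2, and from day 5 Rhox6, Rin3 and Ldoc1. Falls of day 4 were led by Dnajc6, Prmt8, Syce3 and Kat2b, and falls of day 5 by Tesc, Pde9a, Upp1 and Micall2.

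**Figure D2:**
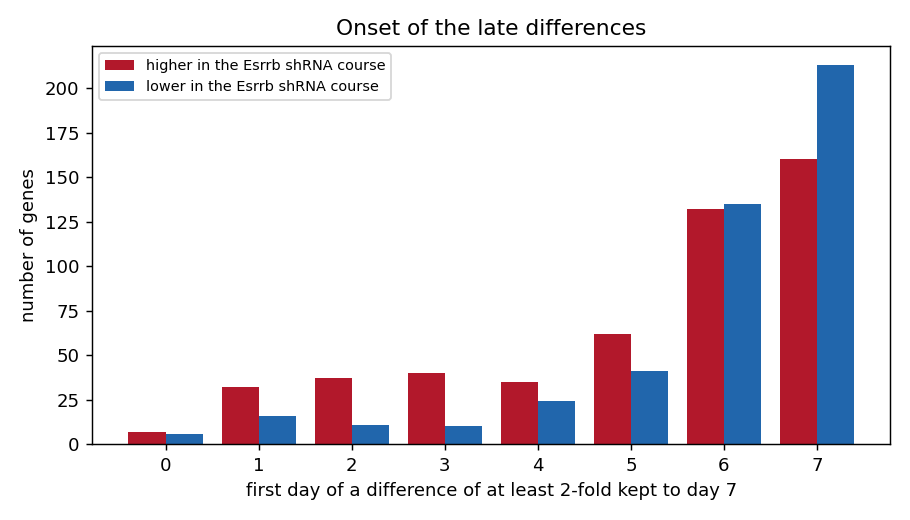
Number of genes by first day of a lasting 2-fold own-day difference (not centred), for genes higher and genes lower late in Esrrb shRNA cells. Onsets on days 0 to 4 sum to 29.9% of the 505 higher and 14.7% of the 456 lower genes.

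Khdc3 was the largest fall. It encodes an RNA-binding KH domain protein that in the mouse oocyte is part of the subcortical maternal complex. Its signal was 1030.2, 381.2, 369.5, 312.9, 323, 283.7, 369.1 and 381.8 on days 0 to 7 in Esrrb shRNA cells. In empty vector cells it was 2601.1, 2669.4, 3256.6, 3593.1, 4122.1, 4388.4, 4288.2 and 4909.4. The courses did not overlap, and most of the fall was present on day 1. The late difference was -3.62 ± 0.15 (12.3-fold, adjusted p = 6.23e-22). Its change from days 0 and 1 to days 4 to 7 also went beyond that of the empty vector, by -1.67 ± 0.26 (adjusted p = 7.53e-05). With day 0 left out of both courses that change was -0.90 and did not pass (adjusted p = 0.355).

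Tbx3, a T-box factor counted here among the naive pluripotency genes, was furthest below the empty vector on early days. It read 511.6, 127.1, 186.3, 113.6, 199, 403.8, 430.4 and 738.4 in Esrrb shRNA cells. It read 1639.3, 1044.2, 954.3, 667.8, 1016.2, 1430, 1201.2 and 1588.4 in empty vector cells. On each day the Esrrb shRNA sample was lower, although its day 7 value lay above the empty vector value of day 3. The own-day difference was -2.84 on day 1 and -1.08 on day 7, and the late difference was -1.61 ± 0.24 (adjusted p = 1.82e-06). Of its other probe sets 1 gave -1.40 (adjusted p = 2.64e-10) and 1 gave -0.39 (adjusted p = 0.485).

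The naive pluripotency genes were lower as a group. Of 22 measured members 17 fell and 0 rose, with a median late difference of -0.89 beside -0.04 for all genes and 8.1% lower among all genes. The list holds Esrrb itself, and without it 16 of 21 fell, with a median of -0.84. Nr0b1, which encodes the orphan receptor Dax1, had 1658.8, 992.5, 656, 466.7, 444.7, 562.1, 523.8 and 744.6 in Esrrb shRNA cells. In empty vector cells it had 2506.8, 2715.1, 2517.3, 2263.3, 1578.7, 2031.1, 1834.1 and 1880.6. Its 2 courses overlapped at 1 sample only, the Esrrb shRNA sample of day 0. The late difference of Nr0b1 was -1.62 ± 0.16 (adjusted p = 9.59e-11).

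Other naive genes fell by about 2-fold or more. Tcl1, a coactivator of Akt kinase, averaged 1010 ± 271 in Esrrb shRNA cells and 3470 ± 515 in empty vector cells (-1.70 ± 0.19). Fgf4, the ES cell's own FGF ligand, averaged 1700 ± 309 against 5210 ± 913 (-1.60 ± 0.23), and neither gene's courses overlapped. Klf4 and Tfcp2l1, both transcription factors downstream of LIF, averaged 1010 ± 206 and 373 ± 33.2 in Esrrb shRNA cells, against 2190 ± 379 and 852 ± 43.7 in empty vector cells. Their late differences were -1.02 ± 0.18 and -0.997 ± 0.214. Dppa3 (0.39 ± 0.16, adjusted p = 0.0919) and Gbx2 (-0.50 ± 0.22, adjusted p = 0.121) were among the 5 members that did not pass.

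The naive group was low from day 1 and then level. Its median own-day difference was -0.19 on day 0, -0.77 on day 1, -0.93 on day 2 and between -0.82 and -1.07 on days 3 to 7. Of its 22 members 10 passed as lower on day 1 and 15 on day 3. From days 0 and 1 to days 4 to 7, 1 of the 22 members changed beyond the empty vector course, downward, and 0 upward. With day 0 left out of both courses, 0 of the 22 members changed beyond the empty vector course.

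**Figure D3:**
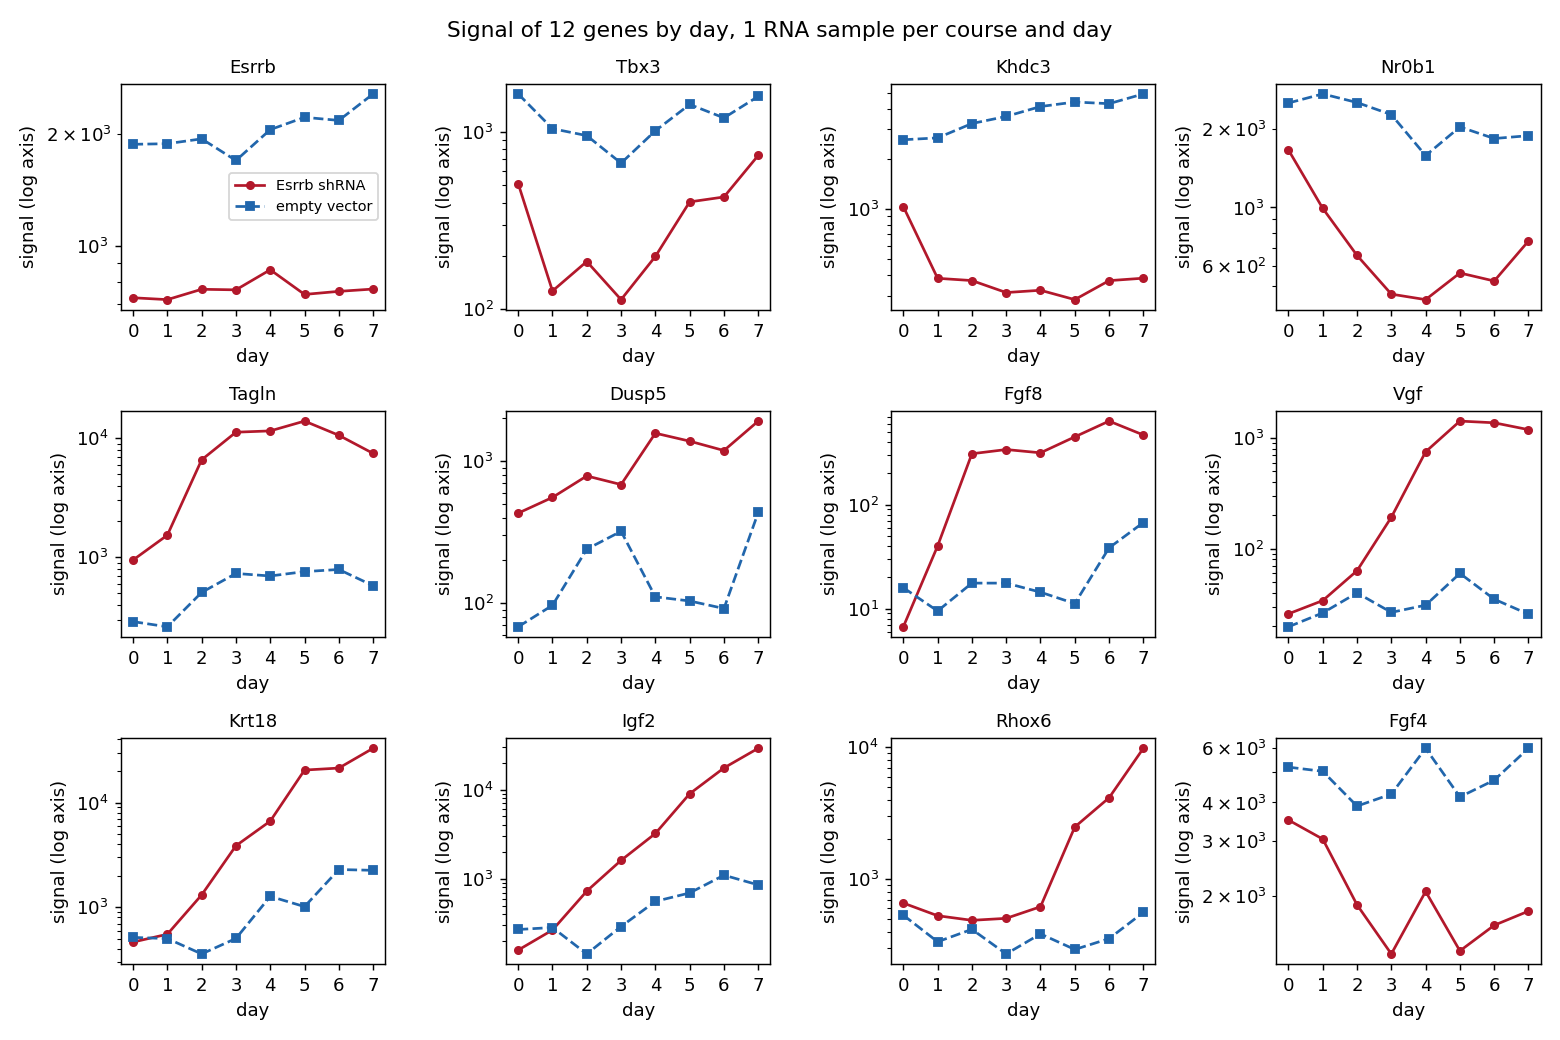
Deposited signal (log axis) of 12 genes on days 0 to 7, 1 point per RNA sample, for the Esrrb shRNA and the empty vector course. Esrrb and Khdc3 are low in every Esrrb shRNA sample, Tbx3 is lowest on days 1 to 4, and Vgf, Krt18 and Igf2 climb through the course.

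The core factors had smaller late differences. Of 19 measured genes of general pluripotency 10 fell and 1 rose (median -0.51), beside 8.1% lower and 9.77% higher among all genes. Pou5f1 (Oct4) averaged 11600 ± 2330 in Esrrb shRNA cells and 16000 ± 1250 in empty vector cells (-0.51 ± 0.15, adjusted p = 0.0117). Sox2 averaged 3400 ± 741 and 5050 ± 890 (-0.60 ± 0.15, adjusted p = 0.00245), and Nanog 5220 ± 988 and 6690 ± 105 (-0.39 ± 0.14, adjusted p = 0.0493). These 3 calls were lost in 6, 5 and 19 of 29 alternative settings. Sall4, a zinc finger partner of Oct4, differed by -0.14 ± 0.11 (adjusted p = 0.426).

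Within the same list, Tet1, an enzyme that oxidises methylcytosine, averaged 538 ± 77.1 in Esrrb shRNA cells and 1830 ± 555 in empty vector cells (-1.68 ± 0.33, adjusted p = 0.000137). Its empty vector value of day 0 was 5019.1, against 978.4 to 2497.1 on later days. Dppa2 (-0.98 ± 0.22), L1td1 (-1.03 ± 0.29) and Utf1 (-0.76 ± 0.15) also fell. The call for L1td1, an RNA-binding protein, was lost in 3 of 29 settings, each of which leaves out day 7 of 1 or both courses.

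The LIF and Stat3 pathway was mixed. Of 18 measured members 7 fell and 3 rose (median -0.34), beside 8.1% lower and 9.77% higher among all genes. Lifr, the LIF receptor subunit, averaged 257 ± 92.1 in Esrrb shRNA cells and 546 ± 142 in empty vector cells (-0.98 ± 0.27, adjusted p = 0.0081), a call lost in 3 of 29 settings. Il6st, the shared receptor subunit gp130, differed by 0.05 ± 0.14 and Jak2, the kinase, by -0.07 ± 0.28, neither passing. Ptpn11, the phosphatase Shp2, rose to 1980 ± 440 in Esrrb shRNA cells, against 1030 ± 212 in empty vector cells (0.95 ± 0.13, adjusted p = 1.43e-07).

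Among 27 measured nuclear receptors, Esrrb included, 5 fell and 2 rose, with a median of -0.17. Without Esrrb 4 of 26 fell, beside 8.1% lower among all genes. The closest relatives of the target, Esrra (-0.28 ± 0.17, adjusted p = 0.3) and Esrrg (-0.08 ± 0.22, adjusted p = 0.867), did not pass. Nr6a1, the germ cell nuclear factor that in the mouse represses Oct4, rose to 1170 ± 136 in Esrrb shRNA cells, against 712 ± 35.2 in empty vector cells (0.74 ± 0.17, adjusted p = 0.00113). Another of its probe sets gave 0.73 (adjusted p = 0.000239), and the rest did not pass. As the mean of its probe sets the call was lost (0.425, adjusted p = 0.0504).

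Some other genes of the oocyte and early embryo fell with Khdc3. Of 12 measured members, Khdc3 included, 3 fell and 0 rose, beside 8.1% lower among all genes. Ooep, a partner of Khdc3 in the same complex, averaged 1900 ± 258 in Esrrb shRNA cells and 5120 ± 730 in empty vector cells (-1.42 ± 0.16, adjusted p = 3.52e-09). Tle6, another subunit, differed by -0.70 ± 0.25 (adjusted p = 0.0477), a call lost in 21 of 29 settings. Padi6 differed by -0.37 ± 0.46 (adjusted p = 0.654).

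The promoters of these genes were searched for the Esrrb sequence in the 250 bases before each start site, taken from RefSeq (GRCm38.p6), on both strands. The full TCAAGGTCA lay in 46 of 11842 tested genes with a promoter entry (0.388%), in 3 of 974 late lower genes (0.308%) and in 4 of 1152 late higher genes (0.347%). Its inner part AAGGTCA, which every full match also holds, lay in 453 (3.83%), in 46 late lower (4.72%) and in 27 late higher genes (2.34%). Among all 27025 listed promoters, 0.422% held the full and 4.7% the inner sequence. A match here is a description of letters, not a bound site, and these windows leave out distal sites. Shown are Khdc3, the largest fall, and, of the named genes with a match that passed late, the 2 largest in each direction. Capitals mark AAGGTCA or its reverse complement TGACCTT. Each runs 5′ to 3′ on the gene's strand.
Khdc3, chr9:73102148-73102397, plus strand, 0 matches: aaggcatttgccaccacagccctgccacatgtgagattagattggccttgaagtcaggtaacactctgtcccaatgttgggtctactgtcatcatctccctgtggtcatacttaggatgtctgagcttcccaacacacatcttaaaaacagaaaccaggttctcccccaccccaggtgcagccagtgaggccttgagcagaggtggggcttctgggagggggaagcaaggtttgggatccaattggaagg
Stra8, chr6:34920698-34920947, plus strand: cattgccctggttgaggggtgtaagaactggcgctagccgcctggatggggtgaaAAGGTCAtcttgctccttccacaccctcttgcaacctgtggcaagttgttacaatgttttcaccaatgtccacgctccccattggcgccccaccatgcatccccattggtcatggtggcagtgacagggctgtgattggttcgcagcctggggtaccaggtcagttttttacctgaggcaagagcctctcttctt
Lifr, chr15:7129322-7129571, plus strand: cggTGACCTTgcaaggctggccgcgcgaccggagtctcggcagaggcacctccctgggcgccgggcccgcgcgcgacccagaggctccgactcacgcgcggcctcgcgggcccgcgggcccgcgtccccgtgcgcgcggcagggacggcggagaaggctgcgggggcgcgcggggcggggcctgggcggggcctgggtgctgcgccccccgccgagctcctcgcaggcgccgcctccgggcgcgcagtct
Cited1, chrX:102250777-102251026, minus strand: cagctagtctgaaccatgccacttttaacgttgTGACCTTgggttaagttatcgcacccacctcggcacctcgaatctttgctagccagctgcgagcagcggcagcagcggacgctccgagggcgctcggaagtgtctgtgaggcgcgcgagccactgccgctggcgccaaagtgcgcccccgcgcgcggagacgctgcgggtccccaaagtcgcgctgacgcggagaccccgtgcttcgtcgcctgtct
Sct, chr7:141279134-141279383, minus strand: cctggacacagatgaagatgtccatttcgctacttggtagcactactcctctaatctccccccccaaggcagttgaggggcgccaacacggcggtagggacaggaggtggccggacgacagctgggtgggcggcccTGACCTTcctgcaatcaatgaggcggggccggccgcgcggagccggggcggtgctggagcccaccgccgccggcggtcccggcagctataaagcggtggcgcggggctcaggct
Stra8 and Lifr were lower late, and Cited1 and Sct were higher late, as their choice required.

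The actin and contractile genes were the group with the largest median rise among the 25 lists. Of 27 measured members 25 rose and 0 fell, with a median of 1.58 beside -0.04 for all genes. Tagln, which encodes the actin-binding protein transgelin, had 951.3, 1536.6, 6577.6, 11206.6, 11491.1, 13887.6, 10558.4 and 7440.7 in Esrrb shRNA cells. In empty vector cells it had 289.5, 262.1, 509, 733.5, 698.8, 760.3, 792.1 and 579.4. Every Esrrb shRNA value was above every empty vector value, and the peak was on day 5 (late 3.80 ± 0.35, adjusted p = 2.91e-11).

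Smooth muscle actin followed the same days. Acta2 had 1381.2, 3983.8, 9309.5, 13689, 16056.9, 17591.3, 14385.1 and 10283.5 in Esrrb shRNA cells. It had 794.7, 1040, 1417.3, 1590.5, 1879.4, 1862.7, 1505.1 and 1039.8 in empty vector cells. The courses overlapped only through the Esrrb shRNA sample of day 0 (late 3.18 ± 0.25, 1.65 as the mean of its probe sets). Acta1 averaged 5840 ± 2820 in Esrrb shRNA cells and 320 ± 131 in empty vector cells (3.87 ± 0.33), and Tpm1, a tropomyosin, 9620 ± 1640 and 1050 ± 236 (3.11 ± 0.31). Cnn2, a calponin, averaged 9110 ± 1170 and 1920 ± 243 (2.20 ± 0.17).

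The contractile rise was early and then held. The list's median own-day difference was 0.22 on day 0, 0.92 on day 1, 0.995 on day 2 and 1.47 to 1.64 on days 3 to 7. Of 27 members 15 passed on day 1 and 22 on day 3. Srf, the transcription factor known to drive many of these genes, differed by 0.09 ± 0.13 (adjusted p = 0.712), and Tagln2, a paralog of Tagln, by 0.00 ± 0.12 (adjusted p = 0.988). A second probe set of Srf gave 0.59 (adjusted p = 0.00987), so its probe sets did not give the same call.

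Genes of the primed epiblast were highest early. Of 19 measured members 7 rose and 3 fell late, with a median of 0.41, but the median own-day difference was 0.42 on day 0, 0.77 on day 1, 1.09 on day 2, 0.87 on day 3 and 0.14 on day 7. Cldn6, a tight junction protein, averaged 3640 ± 492 in Esrrb shRNA cells and 1200 ± 312 in empty vector cells (1.60 ± 0.21), and Cdh2, N-cadherin, 339 ± 55.8 and 80.1 ± 47.8 (1.59 ± 0.28). Fgf5, a standard primed marker, stayed near the floor of the array at 21.3 ± 4.55 and 11 ± 4.66 (adjusted p = 0.359).

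Other members had their largest difference early, of which 3 are named here after their values were seen. Lef1 was at 2.74 on day 1 and 0.14 on day 7 in own-day difference, and Pou3f1 (Oct6) at 2.57 and 0.48, with a late difference of 0.87 ± 0.23 (adjusted p = 0.00538). Otx2, a homeobox gene of the epiblast, was at 1.31 on day 0 and -2.17 on day 7, and its late difference was -1.02 ± 0.23 (adjusted p = 0.00117). Dnmt3b, a de novo methyltransferase, was 8175.2 in Esrrb shRNA cells on day 1, against 3717.2 in empty vector cells, and remained higher late (0.77 ± 0.11, adjusted p = 7.88e-07).

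**Figure D4:**
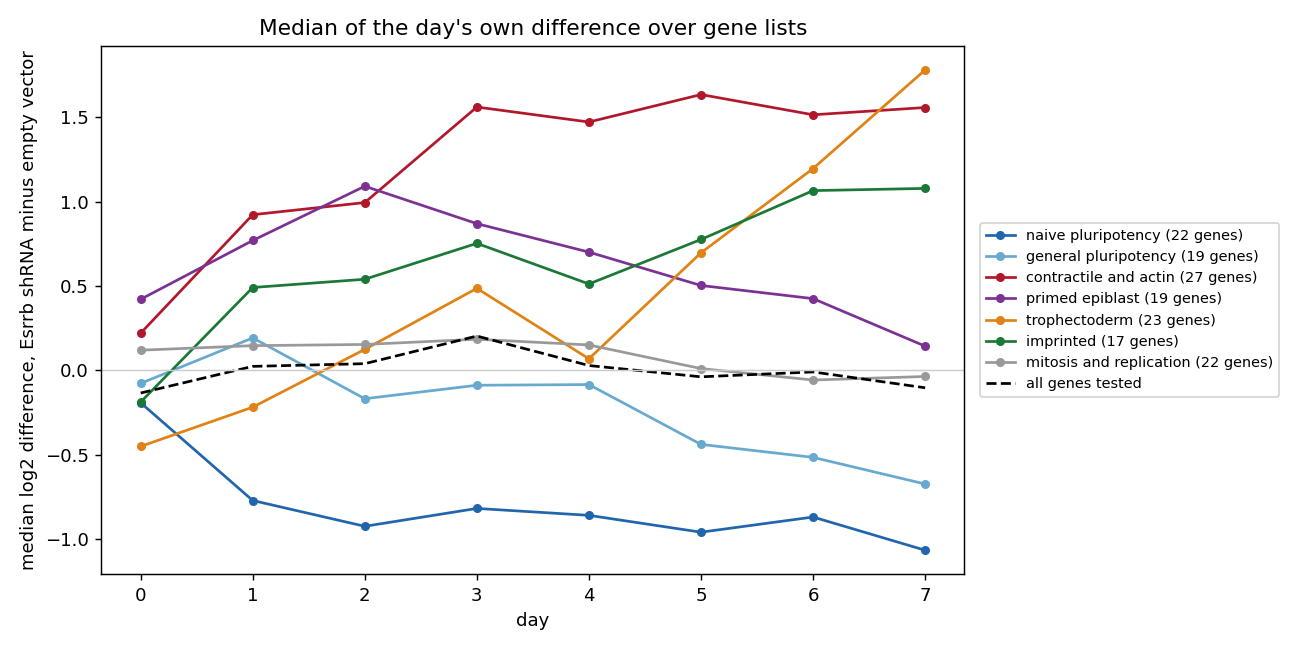
Median over the measured members of gene lists of the own-day difference, Esrrb shRNA minus empty vector, by day (log2 scale), with the median of all genes. The naive list stays between -0.77 and -1.07 from day 1, the contractile list is at 1.47 or above from day 3, the primed list peaks at 1.09 on day 2 and the trophectoderm list reaches 1.78 on day 7.

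Fgf8, an FGF ligand of the early streak and organiser regions, began on day 2. It had 6.7, 40, 307.5, 337.5, 313.9, 446.7, 633.1 and 465.6 in Esrrb shRNA cells. It had 15.9, 9.5, 17.6, 17.6, 14.4, 11.2, 38.4 and 67.2 in empty vector cells. From day 2 on, every Esrrb shRNA value was above all 8 empty vector values. The late difference was 2.49 ± 0.29 (adjusted p = 5.83e-09), but its size followed the pseudocount, with 4.08 at a pseudocount of 1 and 1.25 at the table median.

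Around Fgf8 the FGF and ERK pathway was divided, with 6 of 22 measured members higher, 5 lower and a median of 0.20. Among all genes 9.77% were higher and 8.1% lower. Dusp5 had 430, 555.1, 785.9, 683.5, 1572.3, 1381.7, 1186.9 and 1913.3 in Esrrb shRNA cells. It had 68.1, 96.5, 239.7, 320.3, 110.7, 103.5, 91.6 and 435 in empty vector cells. On 8 of 8 days the Esrrb shRNA sample was the higher, the courses meeting only at the empty vector value of day 7 (late 3.03 ± 0.26, adjusted p = 5.54e-12). Etv4, an ETS factor induced by FGF, went the other way, with 374 ± 231 in Esrrb shRNA cells and 1700 ± 135 in empty vector cells (-2.17 ± 0.28, and -1.19 as the mean of its probe sets). Fgf17 differed by -0.06 ± 0.21 (adjusted p = 0.888).

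In the Nodal, BMP and Wnt pathways 10 of 27 measured members rose and 3 fell, with a median of 0.28. Inhbb, the activin B subunit, had 806.8, 340.3, 267.4, 174, 173.9, 233, 323.2 and 261.4 in Esrrb shRNA cells. It had 2480.1, 2201.7, 2026.8, 1689.4, 1651.2, 1977.5, 1588.8 and 1573.7 in empty vector cells. The courses did not overlap, and the late difference was -2.50 ± 0.18 (adjusted p = 3.41e-14), or -1.71 as the mean of its probe sets. Fst, follistatin, which binds activins, averaged 371 ± 83.7 in Esrrb shRNA cells and 93 ± 29.8 in empty vector cells (1.81 ± 0.32). Id3, a BMP target, averaged 1990 ± 808 and 544 ± 177 (1.69 ± 0.26). Nodal and its inhibitor Lefty1 differed by -0.13 ± 0.16 and 0.46 ± 0.33 and did not pass late, while Lefty1 was at 18514.7 in Esrrb shRNA cells and 5963.9 in empty vector cells on day 2.

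Trophectoderm genes came up late. Of 23 measured members 15 rose and 0 fell, with a median of 0.83. The median own-day difference was -0.45 on day 0, 0.07 on day 4, 0.70 on day 5, 1.20 on day 6 and 1.78 on day 7. Cdx2, a trophectoderm transcription factor that is also used in the posterior embryo, had 43, 28.1, 235.1, 511.2, 612.5, 873.8, 1807.9 and 915.3 in Esrrb shRNA cells. It had 84, 25.4, 67.8, 152.5, 30.8, 160.5, 175.3 and 45.5 in empty vector cells. From day 2 on it was above every empty vector value, and the late difference was 2.70 ± 0.36 (adjusted p = 2.18e-07), or 1.91 as the mean of its probe sets.

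Rhox6, a homeobox gene of the placenta and germ line, moved later than Cdx2. It had 658.4, 527.7, 486.9, 504.1, 617.4, 2487.6, 4145.7 and 9849.6 in Esrrb shRNA cells. It had 532.8, 334.8, 415.9, 270.5, 384.1, 292.5, 353.6 and 559.6 in empty vector cells. From day 5 the Esrrb shRNA values were above the whole empty vector range (late 2.76 ± 0.19, adjusted p = 8.67e-15). Hand1, a trophoblast and mesoderm factor, averaged 1170 ± 415 and 593 ± 85 (0.88 ± 0.20). Eomes differed by -0.01 ± 0.17 (adjusted p = 0.972) and Tfap2a by -0.05 ± 0.20 (adjusted p = 0.906).

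Simple epithelial keratins rose with them. Krt18 had 465.9, 553.6, 1313.4, 3869.7, 6647.1, 20418.9, 21328.8 and 32974 in Esrrb shRNA cells. It had 515.9, 503.5, 358.8, 504.5, 1271.7, 1015.3, 2294.2 and 2255.4 in empty vector cells. From day 3 the Esrrb shRNA values were above all empty vector values, and the empty vector course itself was higher on its last days (late 3.48 ± 0.21, 11.2-fold, adjusted p = 3.82e-16). Its partner Krt8 averaged 14200 ± 6070 in Esrrb shRNA cells and 1520 ± 600 in empty vector cells (3.10 ± 0.26), Krt19 4970 ± 1970 and 413 ± 288 (3.72 ± 0.41) and Krt7 3090 ± 2550 and 194 ± 123 (3.23 ± 0.33).

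Of the 18 measured keratin and junction genes 9 rose and 0 fell (median 0.66). These 4 keratins are also members of the trophectoderm list, so the lists are not independent. Cldn9 (-0.23 ± 0.29, adjusted p = 0.661) and Krt20 (0.72 ± 0.27, adjusted p = 0.0598) did not pass.

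Imprinted genes rose as a group. Of 17 measured members 11 rose and 0 fell, with a median of 0.86. Cdkn1c, Peg10, Phlda2 and Ascl2 are also members of the trophectoderm list, so the imprinted and trophectoderm lists are not independent. Igf2, a fetal growth factor expressed from the paternal allele, had 158.6, 266.2, 726.6, 1607.1, 3214.7, 8962, 17452.1 and 29009.6 in Esrrb shRNA cells. It had 269.8, 283.9, 143.5, 291.3, 557.1, 692.8, 1096 and 852.7 in empty vector cells. It climbed on each day after day 0, and from day 3 all Esrrb shRNA values lay above all empty vector values (late 3.75 ± 0.27, adjusted p = 1.52e-14). As the mean of its probe sets the late difference was 2.62.

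The other imprinted genes named by size began at different times. Cdkn1c, the cyclin-dependent kinase inhibitor p57, had 1816.2 on day 1 and 9639.8 on day 7 in Esrrb shRNA cells, against 392.9 and 415.1 in empty vector cells (late 2.89 ± 0.20). Nnat, neuronatin, averaged 3230 ± 604 and 499 ± 51.8 (2.56 ± 0.17), and Peg3, a zinc finger gene, 1370 ± 469 and 381 ± 61.8 (1.68 ± 0.26). Meg3, a maternally expressed non-coding RNA, differed by -0.13 ± 0.18 (adjusted p = 0.7). Of its other probe sets 1 gave 0.97 (adjusted p = 0.00882), and the rest did not pass.

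Vgf, a neuropeptide precursor of neuroendocrine cells, had the largest late rise of the markers of this course. It had 25.8, 34, 63.3, 192.7, 753.1, 1427.8, 1378.2 and 1194.7 in Esrrb shRNA cells. It had 19.7, 26.3, 39.9, 26.6, 30.9, 59.9, 35 and 25.6 in empty vector cells. Its empty vector values stayed near the floor, and from day 2 every Esrrb shRNA value exceeded them all. The late difference was 4.31 ± 0.37 (19.9-fold, adjusted p = 5.02e-12), 4.95 at a pseudocount of 1 and 3.28 at the table median.

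The neuroendocrine and neuroectoderm lists had members passing in both directions. Of 10 measured neuroendocrine genes 3 rose and 1 fell, beside 9.77% higher and 8.1% lower among all genes. Sct, secretin, averaged 789 ± 620 in Esrrb shRNA cells and 143 ± 71.2 in empty vector cells (1.73 ± 0.27), and Nts, neurotensin, 326 ± 75.5 and 107 ± 21.5 (1.22 ± 0.25). Chga, chromogranin A, averaged 218 ± 40 and 526 ± 152 (-0.99 ± 0.20). Of 11 neuroectoderm genes 2 rose and 1 fell: Sox11 (1.59 ± 0.34) and Sox1 (1.20 ± 0.39), and Tubb3 (-0.89 ± 0.20). The call for Sox1 was lost in 6 of 29 settings, and Pax6 (-0.38 ± 0.20) and Nes (0.40 ± 0.20) did not pass.

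Streak and mesoderm genes showed 4 of 15 measured members higher and 1 lower (median -0.01), beside 9.77% and 8.1% among all genes. The higher ones included Fgf8, Cdx2 and Hand1, which are also in other lists, and Mesp2 fell (-0.81 ± 0.20). Mixl1, a streak marker, differed by -0.28 ± 0.25 (adjusted p = 0.51). Extraembryonic endoderm genes had 4 of 21 higher and 4 lower. The risers were matrix genes such as Serpinh1, a collagen chaperone (1.72 ± 0.15), and Sparc (1.56 ± 0.19), while Gata4 (-0.30 ± 0.18) and Sox17 (-0.18 ± 0.21) did not pass and Lama1, a laminin chain, fell (-1.26 ± 0.28).

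Fibroblast genes were higher late. Of 16 measured members 9 rose and 1 fell, with a median of 0.79. Their median own-day difference was 0.07 on day 1 and 0.97 on day 3, and 0 passed on days 1 and 2. Col1a2, a chain of type I collagen, had 325.3, 391.7, 549.6, 1178.5, 2333.2, 1601.2, 1840.9 and 1522.6 in Esrrb shRNA cells. It had 363.5, 381.7, 390, 408.2, 422.8, 443.8, 351.8 and 471 in empty vector cells. The groups overlapped on days 0 and 1 and did not from day 2 on (late 1.93 ± 0.24, adjusted p = 4.66e-08). Vim, vimentin, averaged 15100 ± 3020 and 7540 ± 1020 (0.98 ± 0.16), and Fn1, fibronectin, differed by -0.07 ± 0.15 (adjusted p = 0.826).

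Summed signals of defining markers were taken for cell types that a sorted ES culture could hold. For fibroblasts 8 of 10 markers were measured, 5 rose and 1 fell, and the late sums were 3037.4 to 3592.3 in Esrrb shRNA cells and 1369.5 to 2034.9 in empty vector cells. The 5 that rose were Col1a1 (0.97), Col1a2 (1.93), Col3a1 (0.92), Twist1 (0.74) and Pdgfrb (0.83), and Thy1 fell (-0.78). The other 2 were Postn and Dcn, at 14.3 and 90.9 in Esrrb shRNA cells, against 27.7 and 101 in empty vector cells, and no marker was at 0. Whether feeder or other fibroblast-like cells have a part in the contractile and collagen values was not tested. For trophectoderm 4 of 6 were measured, all 4 rose, and the late sums were 2119.3 to 14371.5 in Esrrb shRNA cells and 1327.5 to 1408.1 in empty vector cells.

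For extraembryonic endoderm 5 of 6 were measured, 0 rose and 1 fell, with late sums of 595.8 to 915.1 in Esrrb shRNA cells and 923.2 to 1083.5 in empty vector cells. For neuroectoderm 4 were measured, 1 rose and 1 fell, with 1521.2 to 1910.8 and 1753.1 to 2159.8. For ES cells all 4 fell, with 19158.5 to 27930.2 in Esrrb shRNA cells and 31079.1 to 35987.3 in empty vector cells. The late ES cell marker sums of the 2 courses did not overlap.

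The enzymes of DNA methylation split. Of 11 measured genes 2 rose and 3 fell. Dnmt3l, the cofactor of de novo methylation, was at 7402 on day 1 and 2149.5 on day 7 in Esrrb shRNA cells, against 3318.4 and 5071.1 in empty vector cells. It was thus above the empty vector early and below it late (-0.94 ± 0.17, adjusted p = 3.24e-05), while Dnmt3b was above it on 8 of 8 days. Tet2 fell with Tet1 (-0.85 ± 0.21), and Dnmt1, the maintenance enzyme, differed by -0.01 ± 0.20 (adjusted p = 0.986).

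Germ line genes had 6 of 14 measured members lower and 1 higher (median -0.14), beside 8.1% and 9.77% among all genes. Kit, the receptor for stem cell factor, averaged 598 ± 80 in Esrrb shRNA cells and 1490 ± 209 in empty vector cells (-1.24 ± 0.18), and its courses did not overlap. Stra8, a meiotic gene, averaged 136 ± 109 and 408 ± 90.4 (-1.30 ± 0.34), and Piwil2, a piRNA-binding protein, 226 ± 58.7 and 480 ± 93.7 (-0.97 ± 0.16). Dazl, an RNA-binding protein of germ cells, fell (-0.96 ± 0.28), a call lost in 4 of 29 settings, and Ddx4 differed by -0.04 ± 0.20 (adjusted p = 0.929).

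Cell cycle genes were taken as 2 lists. Of 17 genes of the G1 phase 6 rose and 1 fell (median 0.19). Cdkn2b, the inhibitor p15, averaged 863 ± 264 in Esrrb shRNA cells and 100 ± 58.5 in empty vector cells (2.55 ± 0.24), and Cdkn2a 998 ± 216 and 395 ± 110 (1.21 ± 0.14). Ccnd1, cyclin D1, averaged 2200 ± 207 and 1390 ± 422 (0.71 ± 0.15). Its other probe sets gave 0.42 (adjusted p = 0.0491) and 0.23 (adjusted p = 0.387). Of 22 genes of mitosis and replication 0 rose and 2 fell, Bub1 (-0.83 ± 0.29) and Mcm5 (-0.37 ± 0.12), beside a median of -0.01 and a share of 8.1% lower among all genes. The Bub1 call was lost in 11 of 29 settings, the Mcm5 call in 7, and Mcm5 was 0.03 higher after quantile normalization.

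Of 15 genes of the p53 response 6 rose and 1 fell (median 0.18), beside 9.77% higher and 8.1% lower among all genes. Plk2, a polo-like kinase, averaged 2430 ± 881 in Esrrb shRNA cells and 572 ± 209 in empty vector cells (1.99 ± 0.23, and 1.005 as the mean of its probe sets). Phlda3, an inhibitor of Akt, averaged 6130 ± 1060 and 3230 ± 654 (0.92 ± 0.10). Pmaip1, the BH3 protein Noxa, fell (-0.92 ± 0.26), and Mdm2, the ligase that degrades p53, differed by -0.23 ± 0.20 (adjusted p = 0.488). Interferon genes had 1 of 12 higher, Irf1 (0.71 ± 0.15), and 2 lower, Oas1a (-0.87 ± 0.24) and Oasl1 (-0.68 ± 0.25), the last a call lost in 18 of 29 settings.

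Metabolic genes were mostly flat or slightly lower. Of 23 measured genes of oxidative phosphorylation 8 fell and 0 rose (median -0.21), beside 8.1% lower and 9.77% higher among all genes. Ndufs1, a subunit of respiratory complex I, averaged 1430 ± 264 in Esrrb shRNA cells and 2190 ± 298 in empty vector cells (-0.58 ± 0.15). Of 19 glycolysis and hypoxia genes 4 fell and 1 rose (median -0.10). Pfkp, the platelet form of phosphofructokinase, averaged 1570 ± 516 and 6310 ± 1790 (-2.03 ± 0.32, adjusted p = 5.49e-06), and Hk1, a hexokinase, 1420 ± 403 and 2970 ± 756 (-1.04 ± 0.25). Slc2a1, the glucose transporter Glut1, differed by 0.25 ± 0.15 (adjusted p = 0.285).

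Some genes passed on early days and not late. Of all genes 371 passed as higher and 178 as lower on at least 1 of days 0 to 3 without passing late. Insm1, a zinc finger factor of neuroendocrine development, had 60.5, 610.9, 538.7, 322.1, 105.4, 2.4, 15.2 and 13.3 in Esrrb shRNA cells. It had 32.6, 27.3, 109.5, 33.3, 45.2, 38.9, 59.7 and 4.7 in empty vector cells. It was thus high on days 1 to 3 and at the floor from day 5 in Esrrb shRNA cells. Cass4, a scaffold protein of the Cas family, had 325.1 and 256.8 on days 1 and 2 in Esrrb shRNA cells, against 41.8 and 61.7 in empty vector cells. Pllp, plasmolipin, was at 535.3 and 639.4 on days 2 and 3, against 78.4 and 51.9. Among the early falls Dst had 26.8 on day 0 in Esrrb shRNA cells and 887.8 in empty vector cells, and Tug1 68.9 and 1127.6, and for both the empty vector value of day 0 was the highest of its course.

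A stricter question is which genes changed over time beyond the change of the empty vector course, from days 0 and 1 to days 4 to 7. This measure leaves out effects that were complete by day 1, such as that on Esrrb itself (-0.15 ± 0.19, adjusted p = 0.819). By it 272 genes (1.84%) rose and 70 (0.475%) fell, and 324 of these also passed late in the same direction. Trophectoderm (12 higher of 23 measured, 0 lower) and contractile genes (11 of 27, 0 lower) had the most members. Igf2 changed by 3.92 ± 0.45 (adjusted p = 4.15e-07), Krt8 by 3.55 ± 0.45, Vgf by 4.13 ± 0.64, Cryab, a small heat shock protein, by 3.58 ± 0.52 and App, the amyloid precursor protein, by 3.10 ± 0.40. With day 0 left out of both courses these 5 still passed, at 3.68, 3.40, 4.22, 4.40 and 2.84 (adjusted p = 0.000215 to 0.00884). Of 48 named genes that passed on this measure 15 still did, and the trophectoderm and contractile counts were 7 and 2. Without the empty vector sample of day 0 the count was 101 in place of 342, without the Esrrb shRNA sample of day 0 122, and without both 64. Without the day 7 sample of the Esrrb shRNA course it was 196, and without that of the empty vector course 220.

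The last comparison set days 4 to 6 of the Esrrb shRNA course against the same days of the 6 other shRNA courses, which targeted Nanog, Oct4, Sox2, Tbx3, Tcl1 and Mm343880. A gene counted as apart where it passed in the same direction against each of the 6 courses and against the empty vector. These were 8 higher (0.0542%) and 4 lower (0.0271%). Esrrb itself, by the probe set used, was not among them, and its other probe sets were not compared with the other shRNA courses. Khdc3 averaged 325 in Esrrb shRNA cells, 756 in Tbx3 shRNA, 1130 in Nanog shRNA, 2370 in Tcl1 shRNA, 2990 in Mm343880 shRNA, 3630 in Sox2 shRNA, 5850 in Oct4 shRNA and 4270 in empty vector cells. It was lowest in Esrrb shRNA cells, with Tbx3 and Nanog shRNA cells next, and its log2 difference from the mean of the 6 was -2.66 ± 0.13 (adjusted p = 4.13e-19).

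Pim2, a serine/threonine kinase of the Pim family, was the largest rise of this kind. It had 1007.4, 3135.6, 6540.5, 6286.7, 4307.1, 2808.3, 3384.5 and 2711.5 in Esrrb shRNA cells. It had 678.5, 638.7, 841, 964.8, 852.7, 857.3, 754.6 and 833.3 in empty vector cells. The courses did not overlap, and the peak was on day 2. On days 4 to 6 Pim2 averaged 3500 in Esrrb shRNA cells, 2040 in Mm343880 shRNA, 1460 in Tcl1 shRNA, 1350 in Tbx3 shRNA and 631 to 894 in the other 3 courses (difference from the mean 1.59 ± 0.11, adjusted p = 2.88e-14).

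Dbn1, the actin-binding protein drebrin, differed from the mean of the other courses by 1.18 ± 0.13, Oat, ornithine aminotransferase, by 1.08 ± 0.12, Sh3pxd2b, a podosome scaffold, by 1.07 ± 0.14 and the imprinted gene Mest by 1.07 ± 0.13. Homer1, a synaptic scaffold, differed by -1.61 ± 0.29 and Tmem64 by -1.09 ± 0.15. Homer1 was near the floor at 61 in Esrrb shRNA cells and 138 in empty vector cells, and its late call against the empty vector was lost in 12 of 29 settings. The late call of Sh3pxd2b was lost in 1 setting, the mean of its probe sets (0.038, adjusted p = 0.951), and that of Sgpl1 in 4. Sgpl1 (0.81), Rcbtb2 (0.78) and Tspan3 (0.73) were the remaining higher genes and Trim25 (-0.62) the remaining lower one, Rcbtb2 and Tspan3 being named after their values were seen. Against single courses 267 genes were higher and 104 lower than in Tbx3 shRNA cells, the fewest, and 1191 were higher and 1256 lower than in Nanog shRNA cells.

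**Figure D5:**
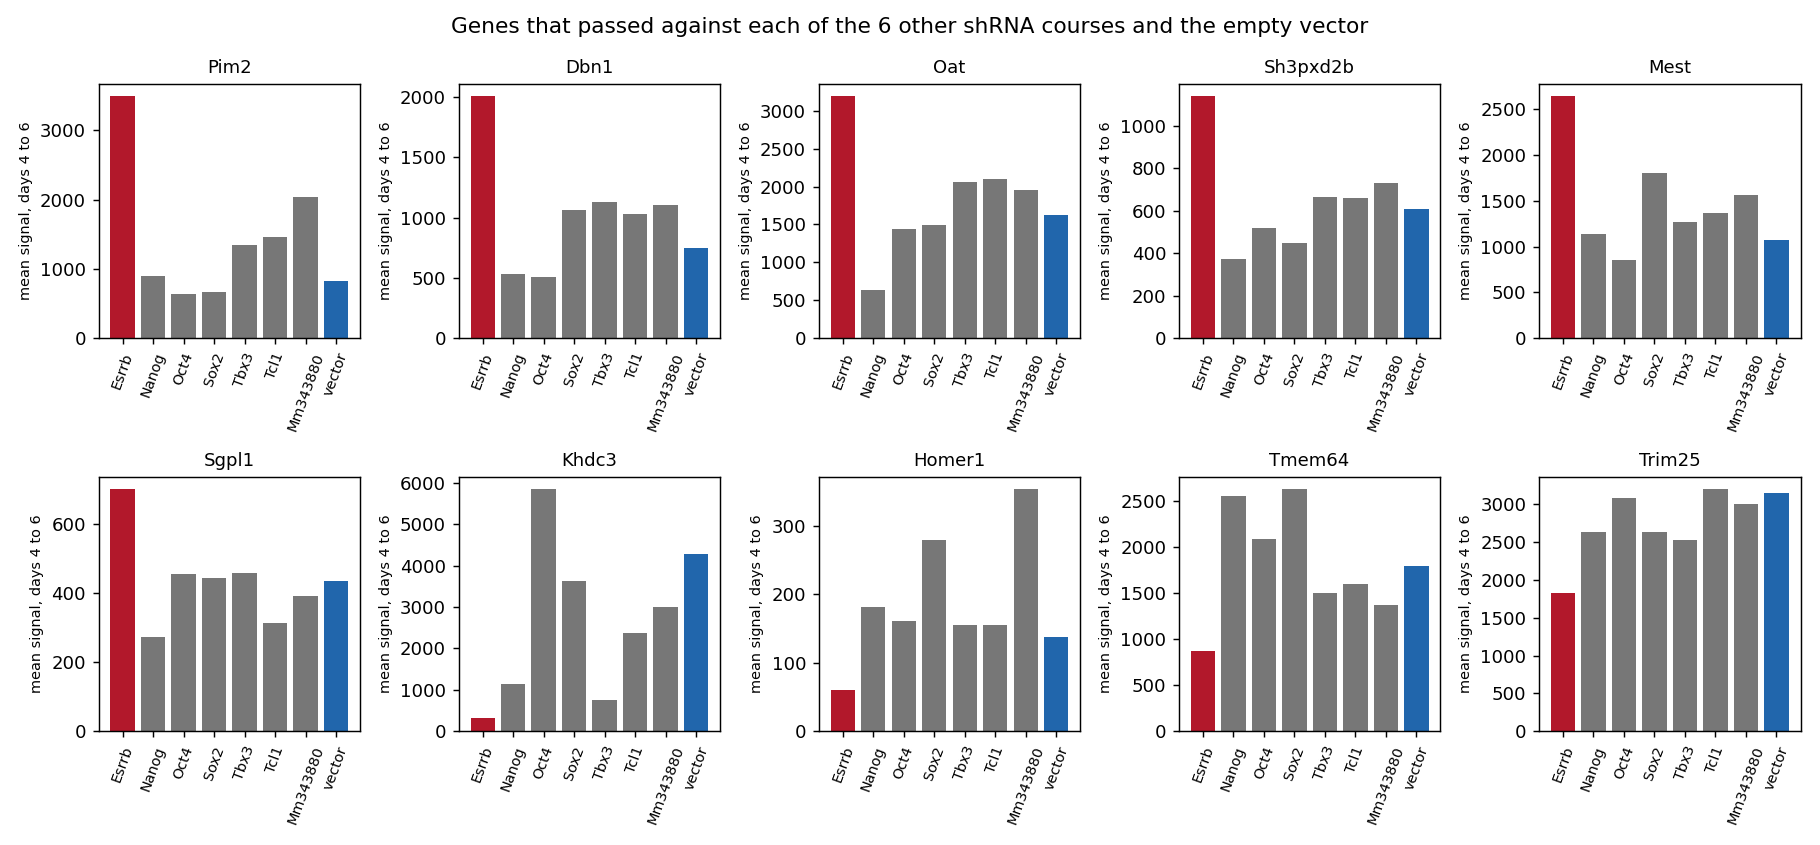
Mean deposited signal (linear axis from 0, bars without error bars) over days 4 to 6 of 10 named genes that passed in 1 direction against each of the 6 other shRNA courses and the empty vector, with the Esrrb shRNA course first, the 6 other shRNA courses next and the empty vector last. Khdc3 is at 325 in Esrrb shRNA cells and at 756 to 5850 elsewhere, and Pim2 at 3500 in Esrrb shRNA cells and 631 to 2040 in the other shRNA courses.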

How the data were processed

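The members and gene lists were chosen with earlier results of these data known. MAS5 signals, named without a version in the submitters' processing notes, were deposited by the authors as linear intensity, scaled so that the 2% trimmed mean of 100 shared probe sets was 2500 on every array. Of 45265 probe sets 35041 named 1 gene, 936 named several and 9160 named none, and 34863 symbols were matched by Entrez ID. Probe sets above the table median (283.3 on A, 89.1 on B) on at least 3 of 70 arrays were kept, 33006 in all. Each of 14751 genes, 7748 on A and 7003 on B, took its values from the probe set ranking highest on average within its table. Pseudocounts were 63.3 for A and 21.9 for B, the 20th percentile of each table.

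The limma package (version 3.58.1, R 4.3.3) fitted the models separately for A and B, over all 70 samples with a natural cubic spline of day (3 degrees of freedom) in each of 9 courses and eBayes with an intensity trend. The courses were the Esrrb shRNA, empty vector, 6 other shRNA and retinoic acid courses, which shared 1 residual variance per probe set. Benjamini-Hochberg adjustment took the p-values of A and B together. The number of arrays, 1 a day and course, limits the precision, and probe sets present on both arrays of 1 sample differed with an SD per array of 0.178. On simulated data with 100 genes changed by log2 1 and 100 by log2 2 from day 3, the late difference recovered 69 and 97, with 13 false calls among 14751 genes. Apart from the changed genes all simulated courses followed the same mean curve, with independent noise in each sample. Differences between cultures or transductions were not simulated, so the false calls do not count any that would come from them.

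Days did not pair the courses (correlations of same-day deviations -0.081 to 0.121). Named genes were the regulators and markers, the 10 largest rises and falls, up to 4 passing and 2 other members of each list, up to 4 genes per onset day and direction, up to 6 early genes and up to 6 genes apart from the other shRNA courses per direction, 202 in all. Alternatives were other pseudocounts, no filter, quantile normalization, the mean of probe sets, other splines, a fit of the 2 courses alone, eBayes without trend, a day block, days 4 to 6 as the late window and leaving out each sample. A Dppa4 course was not analysed here.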

Additional observations from a re-analysis of the deposited data

Results flagged for a closer look

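In 3 of 28 series of 8 days tested, 1 sample lay far from the other 7 by Dixon's test at the 95% level. Chance gives about 1 in 20. The Esrrb signal of the Esrrb shRNA course was 865.1 on day 4, against 719.2 to 767.8 on the other days. The Khdc3 signal of the Esrrb shRNA course was 1030.2 on day 0, against 283.7 to 381.8 later. The Nanog signal of the empty vector course was 8313.5 on day 0, against 6576.5 to 7220.6 later. Days are ordered samples of a course and not replicates of 1 condition.

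For 10 named genes the Esrrb shRNA course differed, by the fitted test over days 4 to 6, from each of the 6 other shRNA courses in 1 direction. Differences from their mean were 1.588 for Pim2, 1.175 for Dbn1, 1.083 for Oat, 1.074 for Sh3pxd2b, 1.066 for Mest and 0.811 for Sgpl1. They were -2.658 for Khdc3, -1.615 for Homer1, -1.088 for Tmem64 and -0.618 for Trim25. Sgpl1, sphingosine-1-phosphate lyase, averaged 700 in Esrrb shRNA cells, 271 to 456 in the 6 other shRNA courses and 435 in empty vector cells. A second probe set of Sgpl1 gave a late difference from the empty vector of 0.28 (adjusted p = 0.519).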

How the results depend on the processing

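More genes were higher than lower late under every alternative run, also after quantile normalization (1377 higher, 1312 lower). With 1195 lower as reported, 754 were lower without the spline and 731 with days 4 to 6 as the late window, which also left 209 of 342 genes with a change beyond the empty vector. Day 0, with 23 genes as reported, had 41 at a pseudocount of 1, 14 after quantile normalization, 42 with a spline of 4 degrees of freedom and 3 in a fit of the 2 courses alone. With 4 degrees of freedom days 1, 3, 4 and 6 had 320, 818, 839 and 1469 genes, against 620, 1353, 1332 and 2251. With 2 degrees of freedom days 2 and 5 had 1207 and 2362, against 721 and 1041, and 1883 genes in place of 1145 differed from the mean of the other shRNA courses. With day 0 left out of both courses, chosen after seeing the data, 64 genes changed beyond the empty vector, and days 1 and 3 had 70 and 856. The causes were not tested. With a replicate block of the day 1103 genes were higher and 884 lower late. Days share only a number, and the block is given for this reason here alone.

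Leaving out 1 sample at a time gave 1011 to 1435 late higher, 708 to 1290 late lower, 101 to 433 changes beyond the empty vector and 551 to 1175 genes different from the mean of the other shRNA courses. By day the ranges were 20 to 120, 163 to 602, 386 to 738, 831 to 1383, 960 to 1360, 595 to 1021, 992 to 2266 and 1101 to 1404. Samples whose loss moved a count by over 1.5 times were, for late lower, both day 7 samples, for the change both day 0 and both day 7 samples, for day 0 the Esrrb shRNA samples of days 1 and 2 and the empty vector sample of day 1, and for day 1 both samples of days 0 and 2. For day 2 they were the empty vector samples of days 2 and 3 and the Esrrb shRNA sample of day 3, for day 3 and day 5 the Esrrb shRNA sample of that day, for day 6 both day 7 samples, and against the other courses the Esrrb shRNA samples of days 4 to 6. Of 144 named genes that passed late 113 passed under every alternative run, 31 lost the call at least once, and 1, Mcm5, reversed to 0.028 after quantile normalization. Of 58 that did not pass, 12 passed under some alternative. Of 156 other probe sets of the named genes in 47 the fold was off by more than 1.5 times, and 0 gave a passing call of the opposite sign to a passing gene. Genes near the signal floor, such as Fgf5, Homer1 and Vgf in empty vector cells, have no reliable fold.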

Other observations

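Among the largest late changes were genes outside the lists. App, the amyloid precursor protein, had 37.3, 117.3, 253.6, 387.6, 766.6, 1064.3, 1689.1 and 2664.1 in Esrrb shRNA cells. It had 39.6, 60.1, 32.3, 44.9, 42.5, 43.7, 137.7 and 73.6 in empty vector cells, so that from day 2 every Esrrb shRNA value was above them all (3.42 ± 0.24). Car4, a carbonic anhydrase, averaged 3770 ± 1670 in Esrrb shRNA cells and 445 ± 136 in empty vector cells (2.85 ± 0.26). Cited1, a transcriptional coregulator, averaged 652 ± 428 and 37.8 ± 8.52 (2.59 ± 0.29), and Crabp2, a retinoic acid binding protein, 675 ± 225 and 105 ± 49.5 (2.02 ± 0.31).

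On the lower side Mymx, whose mouse product promotes myoblast fusion, averaged 475 ± 104 in Esrrb shRNA cells and 3490 ± 1090 in empty vector cells (-2.79 ± 0.30). Manba, lysosomal beta-mannosidase, averaged 725 ± 124 and 3590 ± 746 (-2.21 ± 0.15), and Smarcd3, a subunit of the BAF complex, 56.1 ± 39.2 and 434 ± 97.3 (-2.13 ± 0.33). Tesc, a calcium-binding protein, stayed at 21.9 to 47.6 on all 8 days in Esrrb shRNA cells, against 70.5 to 557.7 in empty vector cells. Upp1, uridine phosphorylase, averaged 7900 ± 4160 and 23000 ± 1400 (-1.74 ± 0.26).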
